A study of Arabidopsis thaliana with 72 samples.

Results

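The 4 genes described here make or modify cell wall material: GUT2 (locus AT1G27440, chromosome 1), TBL33 (AT2G40320, chromosome 2), HCT (AT5G48930, chromosome 5) and CSLC04 (AT3G28180, chromosome 3). They were taken by name, each through the 1 probe set that the platform annotation gives to that gene alone, and so make up 4 of the 12022 genes that had such a probe set after a filter on low values. The tissue is the cotyledon, or seed leaf, of wild type Arabidopsis thaliana (Col-0), measured on 72 Affymetrix Gene 1.0 ST arrays. Seedlings grew on medium with sucrose under long days, with 16 h of light and 8 h of darkness, or under short days, with 8 h of light and 16 h of darkness. From each day length came isolated vasculature, isolated mesophyll (the photosynthetic ground tissue) and whole cotyledons, which the labels call whole leaf. All 6 groups share the genotype and the ages, and each holds 12 arrays: 1 for each Zeitgeber time (ZT, hours after lights on) of 0, 4, 8, 12, 16 and 20 in seedlings 9 days old, and the same again at 10 days. The isolated tissues were released by enzymes and sonication shortly after each time, a treatment that is not described for the whole leaves.

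Plant cells lay down an extensible primary wall while they grow, and some types, above all the water-conducting vessels of the xylem in veins, later add a thick secondary wall of cellulose, xylan and lignin. GUT2, also called IRX10, is a glycosyltransferase that extends the xylan backbone. TBL33 belongs to the TRICHOME BIREFRINGENCE-LIKE (TBL) family, whose members place acetyl groups on wall polysaccharides, and it acts on xylan. HCT, hydroxycinnamoyl transferase, stands at a branch point of the pathway to the monolignols, the units from which lignin is built. CSLC04 belongs to the cellulose synthase-like C proteins, which make the glucan backbone of xyloglucan, the main hemicellulose of the primary wall. The first 3 thus serve mainly secondary walls and CSLC04 the primary wall.

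The isolated tissues carried the markers of their labels. The summed intensity of 6 vasculature markers was 2575 to 5240 in long day vasculature against 293 to 627 in long day mesophyll, and 3203 to 5806 in short day vasculature against 146 to 699 in short day mesophyll. The sum of 6 mesophyll and photosynthesis markers ran from 1652 to 4100 in long day vasculature against 5853 to 10390 in long day mesophyll, and from 1577 to 3951 in short day vasculature against 5359 to 10090 in short day mesophyll, so both groups of vasculature arrays still held part of it. The 2 epidermal and guard cell markers measured, FMA and BLUS1, summed to at most 8.47 in any vasculature array and 5.80 in any mesophyll array, with 10.1 to 41.3 in whole leaf. The 9 genes of wounding and early stress summed to 4220 to 6899 in mesophyll, 95.4 to 693 in vasculature and 21.8 to 51.6 in whole leaf. The part of the isolation in the differences below was not tested. No gene of the lists of secondary wall cellulose synthases, secondary wall transcription factors or xylem cell death markers had a usable probe set, so the xylem itself could not be checked by its defining genes. Array medians lay between 3.295 and 3.77. The long day whole leaf array of ZT 0 on day 10 stood somewhat apart, with a mean intensity of 54.2, and leaving out its replicate number changed no call of the 4 genes in long day whole leaf or against it.

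GUT2, the xylan backbone gene, had its highest levels in veins. Its intensity was 24.8 at the lowest, 52.2 at the median and 108 at the highest in long day vasculature, against 3.91, 4.55 and 6.24 in long day mesophyll. Under short days it was 18.98, 32.5 and 39.8 in vasculature, against 3.48, 4.64 and 7.24 in mesophyll. Every vasculature array lay above every mesophyll array of its day length. On the scale used for all differences, log2(intensity + 1), vasculature stood 3.16 ± 0.12 (SE, limma, n = 12 arrays each) above mesophyll under long days and 2.39 ± 0.12 under short days, which are folds of 8.94 and 5.26 in intensity + 1. A pseudocount of 8 in place of 1 gave 2.20 and 1.56. Whole leaf lay between the tissues, at 10.1, 13.3 and 17.99 under long days and at 9.31, 15.2 and 19.2 under short days. The 6 group means ran, from the top, long day vasculature 5.67 ± 0.59 (SD, n = 12), short day vasculature 4.96 ± 0.32, short day whole leaf 3.92 ± 0.37, long day whole leaf 3.85 ± 0.24, short day mesophyll 2.57 ± 0.30 and long day mesophyll 2.51 ± 0.19. Of the neighbours in that order, long day whole leaf and short day mesophyll alone had ranges that did not overlap. The differences between vasculature and mesophyll are given for all 4 genes as a description and without a p, because the genes came to notice in that contrast.

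TBL33, the xylan acetylation gene, was dim, and lay above the filter's floor almost only in veins. It read 5.003, 7.31 and 18.5 (lowest, median and highest intensity) in long day vasculature, against 1.93, 2.29 and 3.27 in long day mesophyll. Under short days it read 4.32, 5.62 and 9.44 in vasculature, against 1.71, 2.12 and 2.504 in mesophyll. The ranges of the tissues did not overlap in either day length. An intensity of 2.77, the 40th percentile of all values, served as the floor of the filter. TBL33 was above it in all 24 vasculature arrays, in 2 long day mesophyll arrays, in 1 long day whole leaf array, and in 0 arrays of short day mesophyll and short day whole leaf. It thus passed the filter only through the tissue where it is high. Vasculature minus mesophyll was 1.36 ± 0.11 (SE, n = 12 each) under long days and 1.13 ± 0.09 under short days on the log2 scale, and the added 1 understates the difference of so dim a gene. With a pseudocount of 8 it was 0.61 and 0.46, under the size of 1 used for calls below. In mean level long day vasculature (3.10 ± 0.47, SD) and short day vasculature (2.78 ± 0.25) came first, and overlapped with each other. The other 4 group means, between 1.64 and 1.81, overlapped with their neighbours.

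HCT, the monolignol gene, was well above the floor in all 72 arrays and differed less between tissues. Under long days its intensity was 276, 357 and 554 (lowest, median, highest) in vasculature, against 97.8, 150.1 and 282.5 in mesophyll. Under short days it was 248, 394.5 and 455 in vasculature, against 102, 154 and 295 in mesophyll. The ranges overlapped in both day lengths, but at the same time and day the vasculature array was above the mesophyll array in 12 of 12 pairs under long days and in 12 of 12 under short days. The mean difference was 1.25 ± 0.09 (SE, n = 12 each) under long days and 1.22 ± 0.07 under short days, or folds of 2.38 and 2.33. Whole leaf lay close to vasculature, with 215, 291 and 530.5 under long days and 207, 263 and 439.6 under short days. All neighbours in the order of the 6 group means, which ran from 8.57 ± 0.32 (SD) in long day vasculature to 7.31 ± 0.44 in short day mesophyll, overlapped.

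CSLC04, the xyloglucan backbone gene, had the opposite pattern. Its intensity in long day vasculature was 2.36, 3.08 and 14.6 (lowest, median, highest), against 577, 717 and 880.3 in long day mesophyll. Under short days vasculature had 2.90, 4.01 and 5.31, against 346, 680 and 954 in mesophyll. No vasculature array came near any mesophyll array, and 3 of the 12 long day vasculature arrays were at or under the floor of 2.77. Vasculature minus mesophyll was -7.22 ± 0.17 (SE, n = 12 each) under long days and -7.04 ± 0.14 under short days. With vasculature so near the floor these sizes depend on the constant added before the log, and with a pseudocount of 8 they were -5.90 and -5.77, so no fold is given. The mesophyll marker sum in the same arrays had medians of 2470 in vasculature against 7212 in mesophyll under long days and 2610 against 7446 under short days, and its part in the difference was not tested. Whole leaf held 186, 253 and 369 under long days and 218.5, 504 and 574 under short days. The group means ran in the order long day mesophyll (9.49 ± 0.19, SD), short day mesophyll (9.33 ± 0.44), short day whole leaf (8.67 ± 0.52), long day whole leaf (7.99 ± 0.35), short day vasculature (2.29 ± 0.21) and long day vasculature (2.27 ± 0.65). Only the step between long day whole leaf and short day vasculature parted 2 neighbours whose ranges did not overlap. In RNA of a whole tissue, fewer cells of a type and less RNA per cell cannot be told apart.

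**Figure D1:**
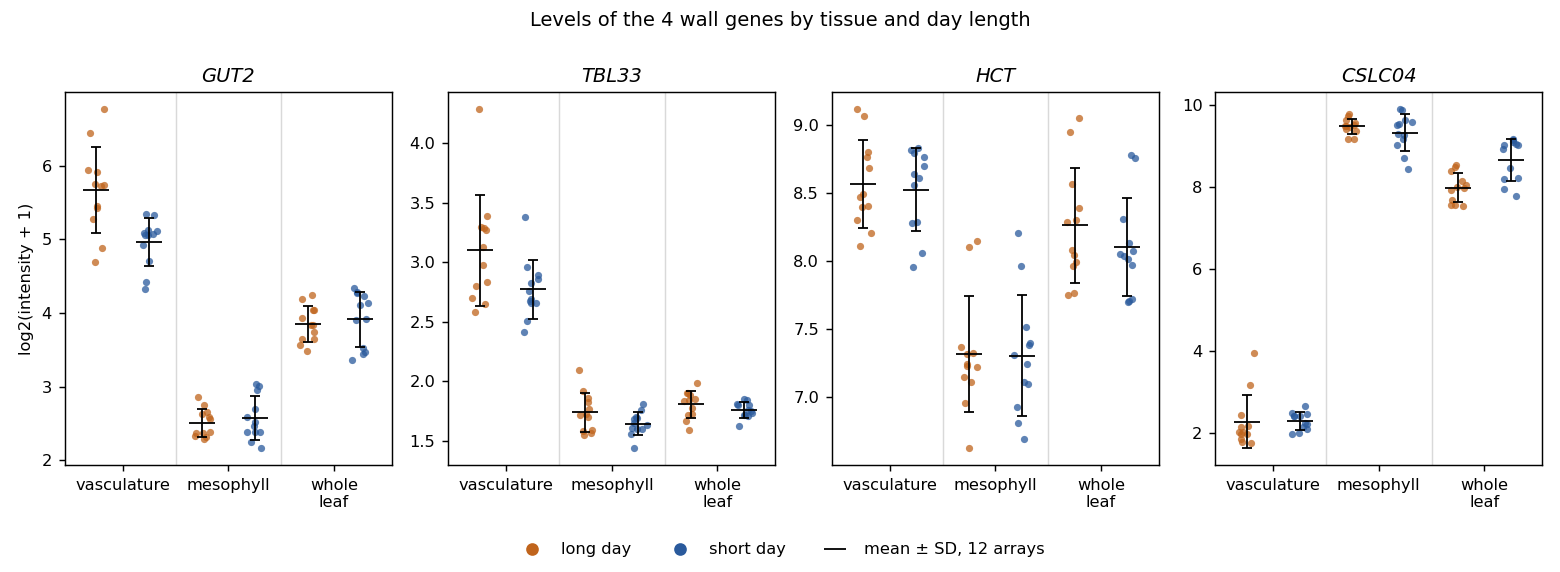
Level of each gene, as log2(intensity + 1), in vasculature, mesophyll and whole leaf; each point is 1 array, orange for long day and blue for short day, and the bars are the mean ± SD of 12 arrays. Each panel has its own vertical scale. GUT2 and TBL33 are highest in vasculature with no overlap with mesophyll, HCT overlaps, and CSLC04 lies between 2.27 and 2.29 on average in vasculature and above 9.3 in mesophyll.

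How common such differences were bears on these values. A call required a Benjamini-Hochberg adjusted p under 0.05 in limma, over the 21827 probe sets kept, and a difference of at least 1. For vasculature against mesophyll 25.5% of the probe sets passed under long days and 25.1% under short days, with medians of all probe sets near 0 (-0.005 and -0.003). All 4 genes were past this call in both day lengths, which the choice of the genes fixes, and TBL33 was not with a pseudocount of 8. GUT2 ranked 545th from the top under long days and 741st under short days, and 97.5% and 96.6% of the probe sets had a smaller difference. TBL33 and HCT lay lower, with 91.2% and 90.2% of the probe sets below them under long days. CSLC04 was near the bottom of the list, with 0.046% of the probe sets below it in both day lengths.

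The other genes of each pathway that could be measured did not share one pattern. The lists below were drawn up with earlier results of these data known. Of 18 genes for the xylan backbone and side chains only 3 had a usable probe set. GUT1, the close relative of GUT2 also called IRX10L, differed by 0.87 ± 0.07 (SE) between vasculature and mesophyll under long days and by 0.85 ± 0.08 under short days, with limma's adjusted p at 9.18e-09 and 3.80e-08 but a difference under 1. IRX15, which affects xylan length, differed by 0.30 and 0.14. Its median intensities were near the floor, at 3.255 and 2.41 in vasculature and 2.30 and 2.21 in mesophyll, in long and short days. GUT2 was the 1 gene of the 3 that passed the call. The list's median was 0.87 under long days, with GUT1 as its middle gene.

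The TBL family was measured best, with 21 of 51 listed genes. Under long days 4 were higher in vasculature and 2 lower, and under short days 5 were higher and 1 lower, in each case 28.6% of the family beside the 25.5% and 25.1% called over all probe sets, so the share called is near the background. TBL33 is among the higher ones, with TBL36, TBL40 and TBL45. TBL36 had a median intensity of 34.8 in vasculature against 2.31 in mesophyll under long days, and 54.6 against 2.51 under short days. Its difference was 3.42 ± 0.21 (SE) under long days and 3.92 ± 0.11 under short days, larger than that of TBL33. Members of this family are named for the size of this difference, so no p is given. TBL40 rose by 1.96 and 1.87, and TBL45 by 1.73 and 1.87, in long and short days. TBL45 was not highest in veins, with medians of 89.5 and 89.3 in whole leaf against 54.0 and 65.2 in vasculature. TBL36 and TBL40 had lower medians in whole leaf than in vasculature. TBL25 ran the other way, at a median of 10.9 in vasculature against 67.3 in mesophyll under long days and 13.8 against 61.1 under short days. It fell by 2.23 ± 0.18 under long days and by 2.13 ± 0.11 under short days. Its medians in whole leaf, 225.6 and 194.7, were above those of both isolated tissues. In both day lengths together 4 members were called higher, 1 lower, 2 in one day length and 14 in neither. Some of the 14 had medians near or under the floor in every group, where a call is hardly possible. TBL33 is counted among the 4 although it passed the filter only through vasculature. The list's median difference was 0.12 under long days and 0.01 under short days, beside -0.005 and -0.003 over all probe sets.

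For the monolignol pathway 2 of 18 genes had a usable probe set. CCR2, a cinnamoyl-CoA reductase of the same pathway, differed by -0.29 ± 0.06 under long days and by -0.60 ± 0.16 under short days. Both values were under the call. Its median intensities were near or under the floor, at 2.13 and 2.45 in vasculature and 2.43 and 3.10 in mesophyll, in long and short days. The sign of CCR2 is therefore not read against that of HCT. PRX52, a peroxidase linked to lignin polymerisation, was the single measured gene of its list and differed by -0.15 and -0.22. It too was near the floor, with medians of 2.84 and 2.62 in vasculature and 3.33 and 3.27 in mesophyll. No statement on lignin synthesis as a whole is possible from these genes.

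Among the CSLC genes measured, CSLC04 was the 1 that passed the call for vasculature against mesophyll. Against whole leaf CSLC05 passed it too under short days, lower in mesophyll (-1.48) and in vasculature (-1.02). Of the xyloglucan synthesis list 5 of 15 genes were measured, all of them CSLC genes. CSLC05 differed by 0.38 ± 0.09 (SE) under long days and by 0.47 ± 0.10 under short days. CSLC06 differed by -0.33 and -0.30, CSLC08 by 0.01 and 0.46, and CSLC12 by -0.03 and 0.05. None of these 4 passed the call, and 2 of the 4 had negative values under long days. The median of the 5 was -0.03 under long days, with CSLC12 as the middle gene.

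Genes that cut and rejoin xyloglucan chains, the xyloglucan endotransglucosylase/hydrolases (XTH), had few measured members. Of 7 measured, 2 (28.6%) were lower and 0 higher under long days, and 3 (42.9%) were lower and 0 higher under short days, beside 25.5% and 25.1% of all probe sets called in either direction. With so few genes, these shares are not read as different from the background. XTH18 fell by 1.59 ± 0.28 (SE) under long days and fell by 3.296 ± 0.15 under short days. The XTH genes too are named for the size of this difference, so no p is given. Its median intensity in whole leaf, 2.97 under long days and 2.46 under short days, was close to that in vasculature, 2.77 and 2.98, while mesophyll had 8.49 and 37.4. Under long days XTH27 fell by 1.18, and under short days it fell by 1.20. XTH32 had -0.997 ± 0.10, short of the call, under long days and fell by 1.03 ± 0.08 under short days. XTH19 differed by -0.56 and -0.54. Among other cellulose synthase-like genes 4 of 24 were measured, and CSLD2, a synthase of tip-growing cells, fell by 1.08 and 1.88. Its median in whole leaf, 7.66 under long days and 6.25 under short days, was close to that in vasculature, 7.34 and 7.83, while mesophyll had 16.4 and 39.1. CSLB03 fell by 1.61 under long days and differed by -0.77 under short days, while CSLA03 and CSLA01, of the mannan synthase group, differed by 0.70 and -0.10 under long days.

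**Figure D2:**
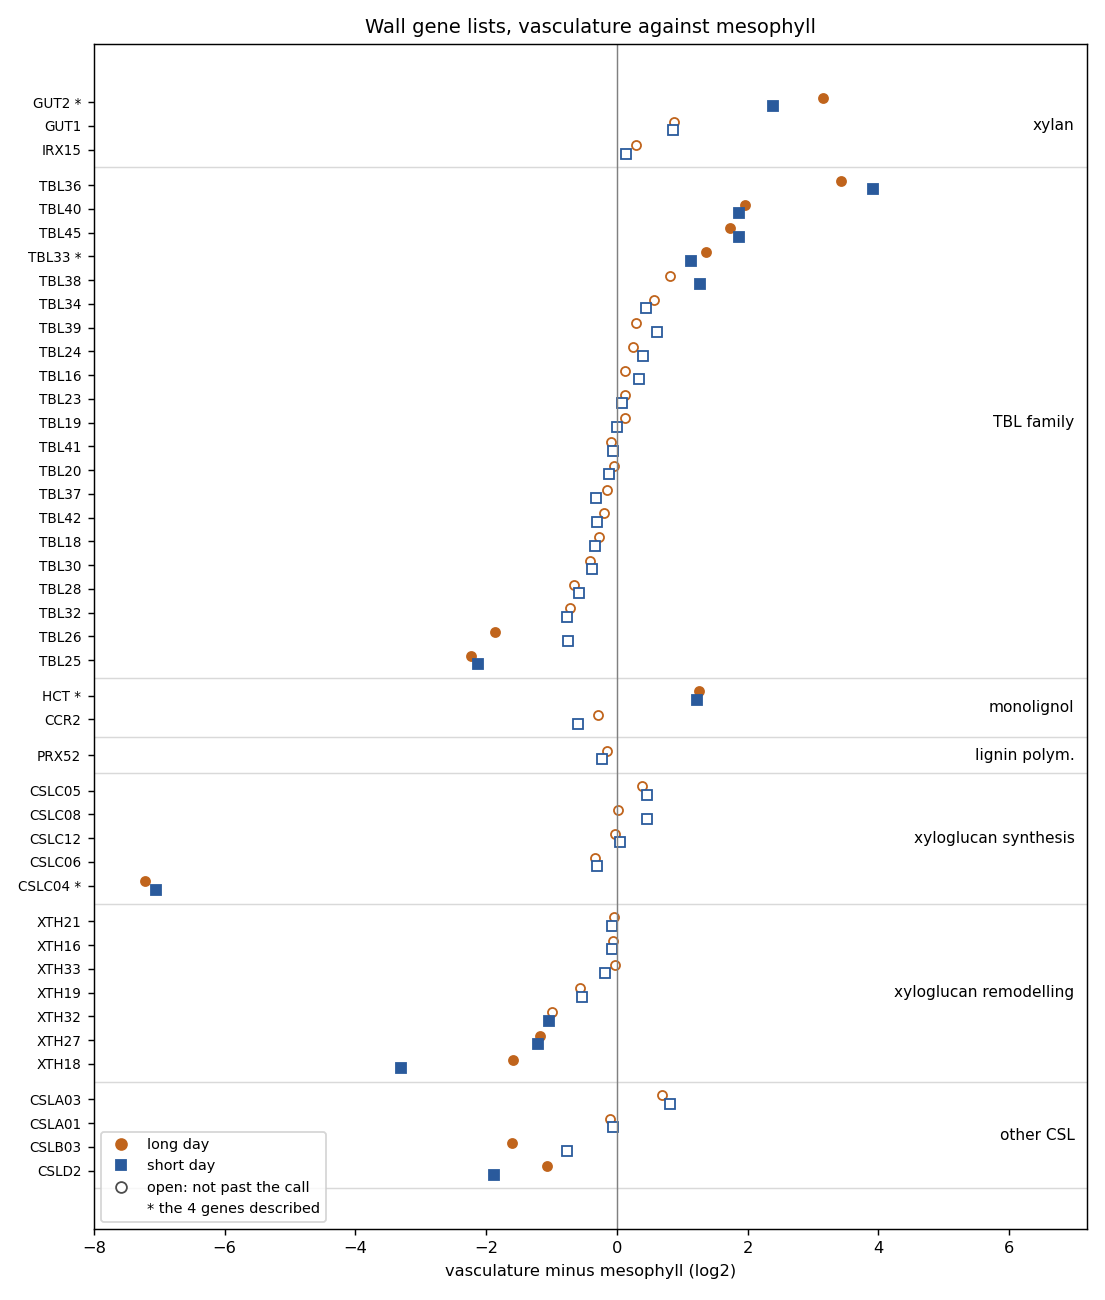
Vasculature minus mesophyll, on the log2(intensity + 1) scale, for every measured gene of the wall lists; circles are long day, squares short day, filled where the call was passed and open where it was not, and asterisks mark the 4 genes described. GUT2 stands above GUT1 and IRX15. TBL33 is exceeded by TBL36, TBL40 and TBL45 in both day lengths, and by TBL38 under short days. CSLC04, near -7, lies far from the 4 other CSLC genes, all between -0.33 and 0.47, and the medians of CSLC12 were under the filter's floor.

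Each isolated tissue was also compared with whole leaf. These comparisons share arrays with each other and with vasculature against mesophyll, so they are not independent. The genes came to notice in that contrast on the same isolated tissue arrays. The calls and p-values against whole leaf therefore carry that selection and are no separate support for a tissue difference. Mesophyll against whole leaf gave calls for 11.2% of probe sets under long days and 12.2% under short days, and vasculature against whole leaf for 20.1% and 20.9%. Of the 4 genes 2 were called in mesophyll against whole leaf under long days (GUT2 lower, CSLC04 higher) and 1 under short days (GUT2 lower). In vasculature against whole leaf GUT2 was called higher and CSLC04 lower in both day lengths. TBL33 is not counted there, since the filter kept it only through vasculature.

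GUT2 fell by 1.34 ± 0.08 (SE) in long day mesophyll against whole leaf and by 1.34 ± 0.09 in short day mesophyll (limma, adjusted p = 2.83e-10 and 6.31e-09), and was lower in 12 of 12 same-time pairs in each. In vasculature it rose by 1.82 ± 0.13 over whole leaf under long days and by 1.05 ± 0.09 under short days (adjusted p = 3.52e-09 and 1.39e-08), in 12 of 12 pairs each. The short day rise is close to the call's minimum of 1 and lay between 0.996 and 1.105 when each replicate number was left out in turn; without number 4, 5 or 9 it was just under 1. A pseudocount of 8 in place of 1 took the short day vasculature rise to 0.79 and the mesophyll falls to -0.76 and -0.77, below the call.

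TBL33 was kept by the filter through vasculature, so its values in vasculature against whole leaf are given as a description and without a p. The difference was 1.29 ± 0.11 under long days and 1.01 ± 0.08 under short days, with vasculature higher in 12 of 12 pairs each. The short day value was 0.90 after quantile normalization and 0.42 with a pseudocount of 8, and the long day value with that pseudocount was 0.59, all under 1. Without replicate number 1, 2 or 4 the short day value was 0.94 to 0.99. In mesophyll it differed from whole leaf by -0.07 under long days (adjusted p = 0.37) and by -0.12 under short days (adjusted p = 0.020), with nearly all arrays of both under the floor. The short day value was 0.04 when each array was centred on its median.

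HCT passed no call against whole leaf. In mesophyll it differed from whole leaf by -0.95 ± 0.07 under long days and by -0.80 ± 0.07 under short days, with limma's adjusted p at 8.91e-09 and 1.41e-07 but a size under 1. Mesophyll was lower in 12 of 12 same-time pairs in each day length. After quantile normalization the long day value was -1.04, and without replicate number 4 it was -1.02, both past the call. In vasculature the differences were 0.31 ± 0.08 and 0.42 ± 0.04 (adjusted p = 0.0021 and 1.01e-07), with vasculature higher in 9 of 12 pairs under long days and in 10 of 12 under short days. At ZT 4 whole leaf was the higher one in 4 of 4 pairs.

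CSLC04 rose by 1.497 ± 0.07 in long day mesophyll over whole leaf (limma, adjusted p = 7.38e-12), in 12 of 12 pairs. Under short days the difference was 0.66 ± 0.14 (adjusted p = 7.63e-04), under the call, and mesophyll was higher in 10 of 12 pairs. In vasculature it fell by 5.72 ± 0.18 against whole leaf under long days, and the short day difference was -6.38 ± 0.06 (adjusted p = 6.24e-14 and 1.18e-20). Whether the mesophyll difference itself changed with day length was not tested.

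The day lengths were compared within each tissue. The sizes are not ranked against those between vasculature and mesophyll, since the genes came to notice in that contrast. Long day against short day gave calls for 1.48% of probe sets in vasculature, 1.22% in mesophyll and 1.86% in whole leaf, and for 0 of the 4 genes in any of the 3. The nearest was GUT2 in vasculature, 0.70 ± 0.14 (SE) higher under long days, with limma's adjusted p at 0.0015 and a size under 1. Long day was above short day in 10 of 12 same-time pairs. By time, as means of 2 arrays a group, the values varied, but a difference in daily course was not called by the fit with 1 term for each time (adjusted p = 0.16). At ZT 0 and ZT 20 it was -0.06 and -0.05, at ZT 4, 8 and 12 it was 1.06, 1.43 and 1.15, and at ZT 16 it was 0.68. The long day arrays of ZT 4 held 108 on day 9 and 53.0 on day 10, a day 10 minus day 9 difference of -1.01, as large as that between the day lengths. In mesophyll and whole leaf GUT2 differed by -0.06 and -0.07 between day lengths.

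CSLC04 differed in whole leaf, at -0.68 ± 0.07 with limma's adjusted p at 2.32e-06, again under the size of 1 and thus not called, with the long day array lower in 10 of 12 pairs. By time it was -1.45 at ZT 0, -0.93 at ZT 4, -0.54 at ZT 8, 0.15 at ZT 12, -0.68 at ZT 16 and -0.64 at ZT 20. ZT 12 alone had the long day mean above the short day mean. In mesophyll the difference was 0.15 ± 0.14 (adjusted p = 0.50) and in vasculature -0.02 ± 0.17 (adjusted p = 0.95). HCT in whole leaf was 0.16 ± 0.05 higher under long days (adjusted p = 0.024), and 0.04 and 0.01 in vasculature and mesophyll. TBL33 in vasculature was 0.33 ± 0.13 higher under long days, with an adjusted p of 0.068.

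The test of whether the vasculature difference depends on day length, the interaction over the 48 arrays of vasculature and mesophyll, called 2.28% of probe sets and 0 of the 4 genes. For GUT2 the tissue difference was 0.77 ± 0.18 (SE) larger under long days, with limma's adjusted p at 0.0030 and a size under 1. For TBL33 it was 0.23 ± 0.15, for HCT 0.03 ± 0.12 and for CSLC04 -0.17 ± 0.23, with adjusted p between 0.33 and 0.90. By time, GUT2 in vasculature exceeded mesophyll by 2.56, 3.94, 3.84, 3.09, 2.94 and 2.59 at ZT 0 to 20 under long days and by 2.405, 2.815, 2.31, 2.31, 1.99 and 2.54 under short days. The long day values exceed the short day ones most at ZT 4 and ZT 8. Among the genes of the wall lists TBL26 and XTH18 passed the interaction call, at -1.11 ± 0.13 and 1.70 ± 0.34. They are named after their values were seen, so no p is given, and they are not read against the 2.28% over all probe sets. In the list of wounding and early stress 4 of 9 passed it too, PUB22 (2.51) and PUB24 (1.19) upward and STZ (-1.17) and ORA47 (-1.89) downward, and their part in the differences was not tested.

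**Figure D3:**
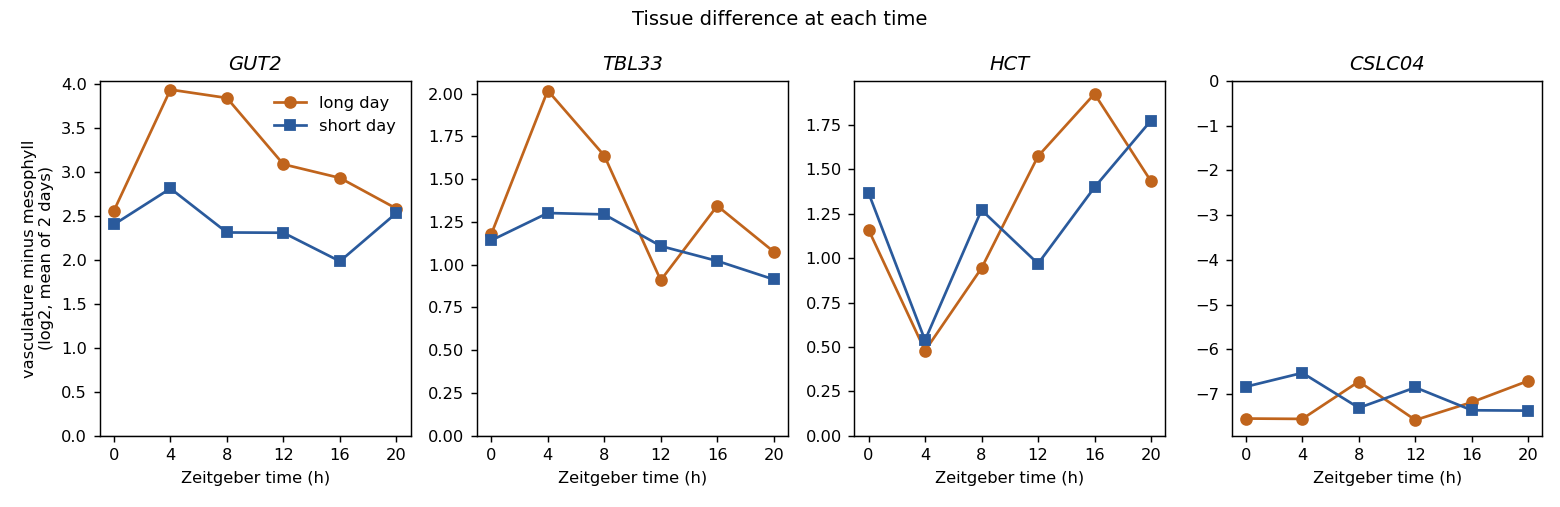
Vasculature minus mesophyll at each Zeitgeber time (h), on the log2(intensity + 1) scale, as the mean of the 2 days; orange circles are long day and blue squares short day, and each panel has its own vertical scale that includes 0. GUT2 under long days reaches 3.94 at ZT 4 and is near 2.6 at ZT 0 and ZT 20, HCT is smallest at ZT 4 in both day lengths, and CSLC04 stays between -7.58 and -6.53.

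For the daily course each gene was tested with a 24-hour cosine and sine in each group, called at an adjusted p under 0.03 of limma's moderated F. That test called 3.16% of probe sets in long day vasculature, 14.5% in short day vasculature, 13.3% in long day mesophyll, 12% in short day mesophyll, 9.52% in long day whole leaf and 34.7% in short day whole leaf. Of the 24 combinations of gene and group, 2 were called, HCT in short day vasculature and GUT2 in short day whole leaf. These 2 lie in the groups where rhythms were called most often.

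In each of the 6 groups HCT had its highest array at the same time on both days, which is given as a description. In mesophyll and whole leaf of both day lengths its highest array was at ZT 4 on day 9 and again at ZT 4 on day 10. In long day mesophyll ZT 4 had 282.5 on day 9 and 274 on day 10, while the other 10 arrays ran from 97.8 to 164. In short day mesophyll ZT 4 had 249.7 and 295, with the others at 102 to 182. Whole leaf did the same, with 530.5 and 495 at ZT 4 under long days and 439.6 and 433 under short days. Vasculature did not peak then. Under long days its highest arrays were at ZT 16, with 536 and 554, and under short days at ZT 0, with 450.3 and 455, while its lowest there were at ZT 12, with 266 and 248. The tissue difference of HCT was accordingly smallest at ZT 4, at 0.48 under long days and 0.54 under short days, and largest at ZT 16 under long days (1.93) and at ZT 20 under short days (1.78).

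The cosine called HCT in short day vasculature, with an amplitude of 0.37, a fitted peak at ZT 22.4 and limma's adjusted p at 0.0046. In mesophyll the amplitudes were 0.40 and 0.36 in long and short days, with adjusted p at 0.12 and 0.24, and in whole leaf 0.24 and 0.29, with 0.59 and 0.18. With 1 term for each time in place of the cosine, which takes any shape, HCT was called in long day mesophyll (adjusted p = 0.012), long day whole leaf (0.0025) and short day whole leaf (2.575e-04). Long day vasculature and short day mesophyll were called by neither fit. Of rhythm differences, called at an adjusted p under 0.05 of the interaction between group and rhythm, vasculature against mesophyll called 7.14% of probe sets under long days and 6.13% under short days. HCT was not among them with the cosine (vector difference, the gap between 2 fitted rhythms as vectors, 0.63, adjusted p = 0.072 under long days, and 0.40, adjusted p = 0.29 under short days), and was with 1 term per time (adjusted p = 0.029 and 0.041).

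GUT2 varied most in long day vasculature, where peak to trough of the means by time was 1.19 on the log2 scale. In long day vasculature it had 42.2, 108, 86.1, 52.6, 37.6 and 24.8 at ZT 0 to 20 on day 9, and 28.5, 53.0, 59.2, 60.6, 51.9 and 42.9 on day 10. Both days were low at ZT 0 and higher at ZT 4 and ZT 8, but the peaks were at ZT 4 and ZT 12. In short day vasculature the values stayed between 18.98 and 39.8. Neither vasculature course was called (amplitudes 0.61 and 0.30, adjusted p = 0.087 and 0.10). In short day whole leaf GUT2 had 9.31 to 10.5 at ZT 4 and ZT 8 and 13.9 to 19.2 at the other times, so the 4 arrays of ZT 4 and ZT 8 lay below the other 8. That course was called, with an amplitude of 0.41, a fitted peak at ZT 17.8 and an adjusted p of 0.0094. In long day whole leaf the amplitude was 0.18 (adjusted p = 0.40), and day 10 lay below day 9 at 6 of 6 times, with differences of -0.56 to -0.18. Long day whole leaf and long day mesophyll both had their highest mean at ZT 12 and their lowest at ZT 4, with peak to trough 0.44 in whole leaf and 0.435 in mesophyll.

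Rhythm differences between day lengths were called for 5.24% of probe sets in vasculature, 2.31% in mesophyll and 6.62% in whole leaf. GUT2 was called in vasculature, with a vector difference of 0.80 and limma's adjusted p at 0.040. It was also called between vasculature and mesophyll under long days, at 0.69 and 0.047. Both calls lie just inside the threshold and were lost, among other settings, with 1 term per time (adjusted p = 0.16 and 0.074), and each was lost without at least 8 of the 12 replicate numbers in turn. No other rhythm difference between day lengths was called for the 4 genes.

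CSLC04 in short day whole leaf was high early and low at ZT 12. It had 523, 574, 518, 246, 356 and 292 at ZT 0 to 20 on day 9, and 551, 567, 489.6, 218.5, 527 and 296 on day 10. The 2 arrays of ZT 12 were the lowest on their day, and ZT 4 was the highest on both days. Under long days whole leaf had 186, 242, 334, 263, 284 and 188 on day 9 and 206, 369, 358, 251, 255 and 188 on day 10, with its lowest values at ZT 0 and ZT 20. The cosine did not call either course (amplitudes 0.39 under long days and 0.48 under short days, adjusted p = 0.039 and 0.066). With 1 term per time both were called (adjusted p = 0.030 and 2.10e-04), as was the difference between the day lengths (vector difference 0.59, adjusted p = 0.11 with the cosine and 0.0041 with 1 term per time).

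Mesophyll did not repeat that course. Long day mesophyll stayed within 577 and 880.3, with its lowest array at ZT 16 on both days, and short day mesophyll was lowest at ZT 4 on both days, at 346 and 616. There day 10 lay above day 9 at 6 of 6 times, by 0.10 to 1.19. The mean of the 6 day differences was 0.60, above that of the other 5 groups of this gene, which had -0.48 to 0.10. In long day vasculature 2 arrays stood out, with 14.6 at ZT 20 and 7.93 at ZT 8 on day 9, while the other 10 were between 2.36 and 4.38. The mesophyll marker sum was 3118 and 4100 in those 2 arrays and 1652 to 3694 in the others, and its part in these values was not tested.

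TBL33 had no called rhythm or rhythm difference in any group. In long day vasculature its 2 arrays of ZT 4 had 18.5 on day 9 and 8.67 on day 10, and the fitted amplitude was 0.35 with an adjusted p of 0.42. In short day vasculature ZT 4 had 9.44 and 4.70. The high ZT 4 array of long day vasculature on day 9 was also the highest of GUT2, and held 3575 of the mesophyll marker sum and 3972 of the vasculature marker sum, both inside the range of the other 11 arrays. Its wound and early stress sum, 95.4, was the lowest of the 12, with 106 to 366 in the others, and the part of that in these values was not tested. Within the TBL family TBL37 was the member with the most rhythm calls, in 5 of 6 groups, with fitted peaks between ZT 19.9 and ZT 21.7.

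**Figure D4:**
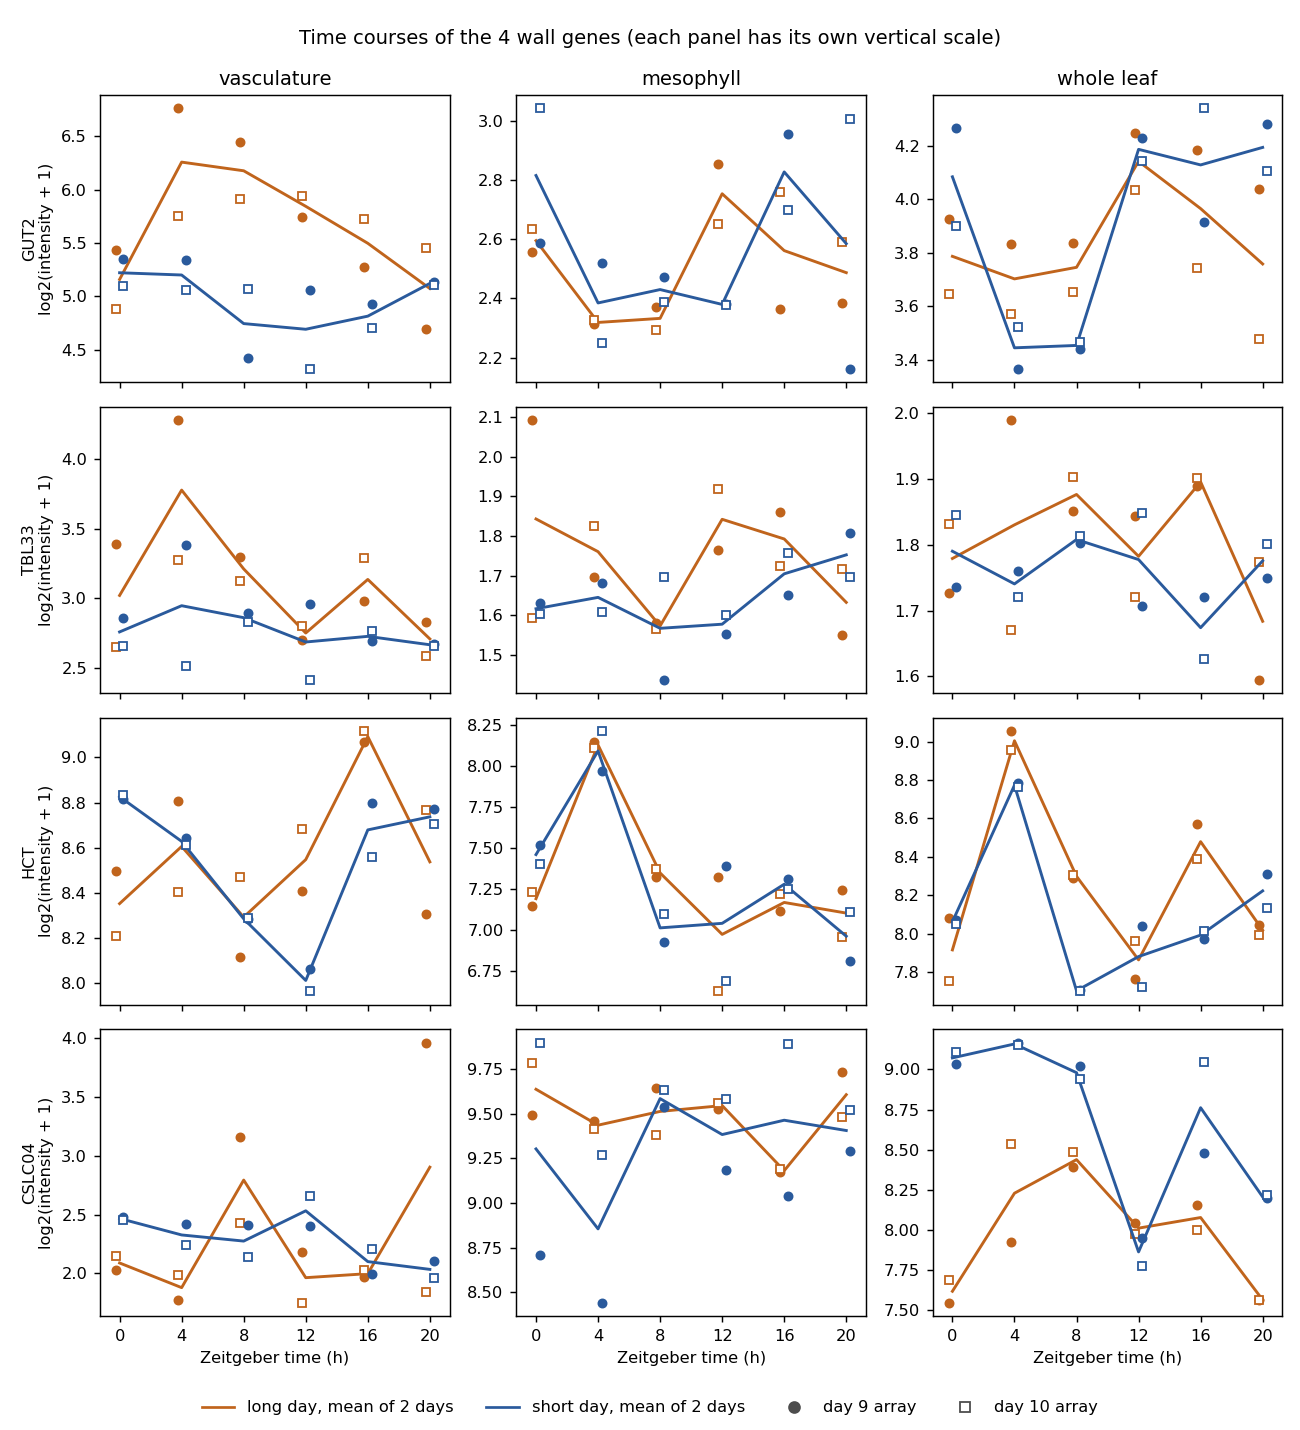
Time course of each gene in each tissue, as log2(intensity + 1) against Zeitgeber time (h); filled circles are day 9 arrays, open squares day 10 arrays, and lines join the means of the 2 days, orange for long day and blue for short day. Each panel has its own vertical scale. HCT is highest at ZT 4 in mesophyll and whole leaf and not in vasculature, CSLC04 in short day whole leaf is lowest at ZT 12, and GUT2 in long day vasculature is highest at ZT 4 to ZT 8.

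Across the 36 means of group and time the genes were compared in pairs. Pearson's r was 0.88 between GUT2 and TBL33, 0.76 between GUT2 and HCT, and 0.62 between TBL33 and HCT. CSLC04 had r of -0.89 with GUT2, -0.94 with TBL33 and -0.68 with HCT. The means span the tissues in whose contrast the genes were chosen, so the signs follow from that choice, and the values are a description only. Among 12139 other probe sets of 1 gene, the patterns most like GUT2 were those of AT5G51890 (r = 0.965), AT1G70550 (0.960) and AT3G03070 (0.957). Most like TBL33 were AT3G30841 (0.972), GSTF4, a glutathione S-transferase (0.972), and AT3G21460 (0.9705). HCT had less close companions, AT3G61560 (0.877), AtRZ-1c (0.873) and AT4G11211 (0.868). CSLC04 was closest to AT1G80380 (0.987), AT5G13410 (0.984) and AT1G14580 (0.981).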

How the data were processed

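Per the labels' protocols, total RNA of isolated tissues and whole cotyledons was purified on columns and biotin-labelled. Linear intensities were deposited. Per the submitters' processing notes the authors ran GCRMA, whose version was not given in the sources used here. Array medians of the deposited values still ran from 3.295 to 3.77, so the arrays did not share one distribution. All 72 value columns matched 1 sample each. The number of arrays limits the precision. No label says that arrays came from separate cultures, and the p-values thus reflect the spread among these arrays alone, possibly a technical one.

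Intensities were analysed as log2(intensity + 1). Probe sets above 2.77 in at least 6 arrays were kept (21827 of 28583). Names came from the platform annotation and RefSeq's genes of assembly TAIR10.1. In all, 16722 probe sets had 1 gene (16574 found in RefSeq), 759 several and 11102 were not listed. Fits used limma 3.58.1 in R 4.3.3 (with data.table, version 1.17.8) with a term for each group and time, on the arrays compared, averaging the 6 times. Rhythms used a 24-hour cosine and sine; HAYSTACK, which the series design names, was not used. Tests were two-sided, were adjusted over all kept probe sets, and were checked on simulated data beforehand. Tables and figures used pandas 2.3.3 and matplotlib 3.10.9.

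The 4 genes and all gene lists were chosen with earlier results of these data known. Named are the 4 genes, the 3 probe sets most like each, up to 4 members of each wall list with the largest vasculature difference, and all measured members of short lists that hold one of the 4. From the epidermis list FDH was left out, since RefSeq gives that symbol to formate dehydrogenase.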

Additional observations from a re-analysis of the deposited data

Results flagged for a closer look

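All 3 results listed here belong to GUT2, and each is a difference between groups that had a test of its own. The difference of GUT2 between vasculature and mesophyll was larger in long days than in short days by 0.77 ± 0.18 (SE) on the log2 scale, with limma's adjusted p at 0.0030. Its size stays under the minimum of 1 for a call, and its adjusted p lay between 0.0012 and 0.032 over the 18 other settings tried. The daily course of GUT2 in vasculature differed between long and short days by a vector difference of 0.80 (limma, adjusted p = 0.040). In long days its daily course differed between vasculature and mesophyll by 0.69 (adjusted p = 0.047). The last 2 p-values are close to the threshold of 0.05, and the settings that move them across it are given with the processing.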

How the results depend on the processing

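Samples of the compared groups share numbers through day and time, but same-numbered arrays did not deviate together (correlations of their deviations -0.224 to 0.15), so the numbers are not taken as pairs. With a replicate block, CSLC04's rhythm difference between day lengths in whole leaf (0.59, adjusted p = 0.037) and HCT's between vasculature and mesophyll in long days (0.63, adjusted p = 0.029) passed the call, and GUT2's (0.69, adjusted p = 0.051) did not; no other call of the 4 genes changed. A pseudocount of 8 took vasculature minus mesophyll in long and short days to 2.20 and 1.56 for GUT2, 0.61 and 0.46 for TBL33 and -5.90 and -5.77 for CSLC04, those of TBL33 being under the size of 1 for a call. It also put below the call GUT2 in mesophyll against whole leaf (-0.76 and -0.77) and in short day vasculature against whole leaf (0.79), TBL33 in vasculature against whole leaf (0.59 and 0.42), and GUT2's rhythm differences (0.68 between day lengths and 0.57 between tissues). Those 2 were also lost without the filter (0.80, adjusted p = 0.053, and 0.69, adjusted p = 0.060) and with 1 term per time. With 1 term per time, further calls were CSLC04 in long and short day whole leaf (0.39 and 0.48) and its difference (0.59), HCT in long day mesophyll (0.40), long day whole leaf (0.24) and short day whole leaf (0.29), and HCT's differences between day lengths in whole leaf (0.27) and between tissues in long and short days (0.63 and 0.40). Quantile normalization put HCT in long day mesophyll against whole leaf past the call (-1.04) and TBL33 in short day vasculature against whole leaf below it (0.90), as did centring each array on its median (0.999), which also turned TBL33 in short day mesophyll against whole leaf to 0.040. Centring moved the median probe set by -0.16 and -0.17 for vasculature against mesophyll, and by 0.17 and 0.16 for mesophyll against whole leaf. A term for the day of sampling, chosen after seeing the data, was fitted for the tissue and day length differences only, not for rhythms. It changed none of those calls. With 1 array for each group, time and day it cannot move the differences themselves, so it is no check of their size. The causes were not tested.

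Leaving out each replicate number in turn gave ranges of 0.68 to 0.93 and 0.58 to 0.77 for GUT2's rhythm differences between day lengths and between tissues, 0.996 to 1.105 for GUT2 and 0.94 to 1.08 for TBL33 in short day vasculature against whole leaf, and -1.02 to -0.87 for HCT in long day mesophyll against whole leaf. For CSLC04 in whole leaf the ranges were 0.36 to 0.43 in long days, 0.40 to 0.66 in short days and 0.53 to 0.69 for their difference. 
Counts of probe sets called that moved by over 1.5 times under some setting are given with their range. For rhythms they were 689 (386 to 1060) in long day vasculature, 2899 (2164 to 5555) in long day mesophyll and 2079 (1370 to 4228) in long day whole leaf. For rhythm differences between day lengths they were 1144 (310 to 2329) in vasculature, 504 (51 to 2278) in mesophyll and 1446 (530 to 4750) in whole leaf, and between vasculature and mesophyll 1559 (1105 to 3624) in long days and 1339 (895 to 2095) in short days. For long against short day they were 322 (169 to 349), 266 (116 to 314) and 407 (197 to 451) in vasculature, mesophyll and whole leaf, for the interaction 497 (265 to 558), and for mesophyll against whole leaf 2452 (1523 to 2526) and 2658 (1639 to 2724) in long and short days.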
